A study of Mus musculus with 6 samples.

Results

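Axon guidance genes encode the ligands and receptors by which growing axons and migrating neural cells read their surroundings. The genes described here were chosen by name from the array's annotation: semaphorins, plexins, neuropilins 1 and 2, Eph receptors, ephrins, Robo and Slit proteins, netrins, Dcc and the Unc5 receptors. This gave 69 genes of the 23152 on the array, read by 1316 of its 269751 probe sets. They comprised 7 class 3 (secreted) semaphorins, 13 membrane semaphorins of the later classes, 9 plexins, 2 neuropilins, 9 EphA and 5 EphB receptors, 5 ephrin-A and 3 ephrin-B ligands, 3 Slit and 4 Robo genes, 4 netrins, and Dcc with 4 Unc5 genes. Counted by role, 35 were ligands and 34 were receptors.

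RNA came from neural stem cells of the cortex of mouse embryos at day 14.5, grown as 3 cell lines that the titles call 2, 7 and 8. In every line, the control culture was given adenovirus with green fluorescent protein (Ad-GFP), and a second culture adenovirus with Cre recombinase (Ad-Cre), which the study design says induces mutant IDH; the series title names IDH1 R132H. Both viruses were used at 100 MOI (infectious particles per cell) and washed off after 24 hours, so the control cells had been infected too, and each culture was read on 1 Affymetrix array. The strain, the allele's promoter and the time of harvest are not stated in the sources used here. As every Ad-Cre culture belongs to these lines, Cre itself and mutant IDH cannot be told apart. A free description field is at odds with the titles in line 8: it reads M for Ad-Cre of line 2 and for Ad-GFP of line 8, and WT for Ad-GFP of line 7 and for Ad-Cre of line 8. Titles and transduction labels were used, and the main counts are also given with the viruses of line 8 exchanged.

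Values are log2 signals, so a difference of 1 is a factor of 2. Median probe set signals of the 6 arrays lay between 8.38 and 8.43, and the number of arrays limits the precision. The stem cell genes Nes and Sox2 read 11.58 to 12.35 and 12.97 to 13.53 on the 6 arrays. Both lay well above the lower quartile of all probe set signals, 6.59. Another stem cell marker, Prom1, read 7.12 to 8.19 with Ad-GFP and 6.02 to 6.43 with Ad-Cre, so under that quartile with Ad-Cre. By mean signal, 0 of 12 stem cell markers were under it. So were 2 of 14 neuron markers (Neurod6 and Tbr1) and 1 of 13 oligodendrocyte lineage genes (Mag), against 29.5% of all genes. The quartile is not a cut for expression, as 2 of 10 microglia markers were under it and the rest above. Idh1 lay between 12.38 and 12.95 on all arrays, and its probe sets are not known to tell the mutant transcript apart. The Ad-Cre array of line 2 stood apart, correlating with the other arrays across genes at 0.969 to 0.976. On it the astrocyte filament gene Gfap read 11.27, against 7.48 to 8.33 elsewhere, and the proliferation gene Mki67 read 10.10, against 12.43 to 12.84.

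In these pathways, semaphorins bind plexins, with neuropilins as the co-receptors of most class 3 members. Ephrins are themselves tied to the membrane, the A type by a lipid anchor and the B type by a transmembrane segment, and they bind Eph receptor tyrosine kinases on touching cells, often with signals in both directions. Slits repel axons through Robo receptors. Netrin-1 attracts axons through Dcc and repels them through Unc5 receptors. In the embryonic cortex the same proteins also act on dividing progenitors, on migrating neurons and on blood vessels.

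With Ad-Cre, the most marked differences among the 69 genes were higher signals of the ligand genes Efna3 and Sema3c and of the receptor gene Plxnd1, and a lower signal of Dcc. Of the 69 genes, 13 were higher and 8 were lower at an unadjusted limma p under 0.05, shares of 18.8% and 11.6%. Over all genes on the array the same shares were 7.04% and 5.58%. Members were seldom dim: 5 of 69 (7.25%) had a mean signal under the lower quartile of probe set signals, against 29.5% of all genes. The values over all genes thus include more dim genes, and no comparison with genes of like signal was made. All 21 members under that p went the same way in every line, and in 15 the Ad-Cre and Ad-GFP arrays did not overlap. The p itself rests on agreement between the lines, so this follows in part from how the 21 were picked. None of the 69 passed after adjustment over all genes (smallest adjusted p = 0.0886), and none of the 23152 did (0%). The median difference over the 69 was 0.06, against 0.03 over all genes, and the median absolute difference was 0.26, against 0.11. Direction was shared by the 3 lines in 34 members, 23 higher and 11 lower, or 49.3% against 38.3% of all genes. The groups did not overlap in 20 members, 29.0% against 20.9% of all genes. Of these, 14 were higher (20.3% against 12%) and 6 lower (8.7% against 8.89%). Mean differences were above 0 in 43 members, 62.3% against 56.4% of all genes.

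**Figure D1:**
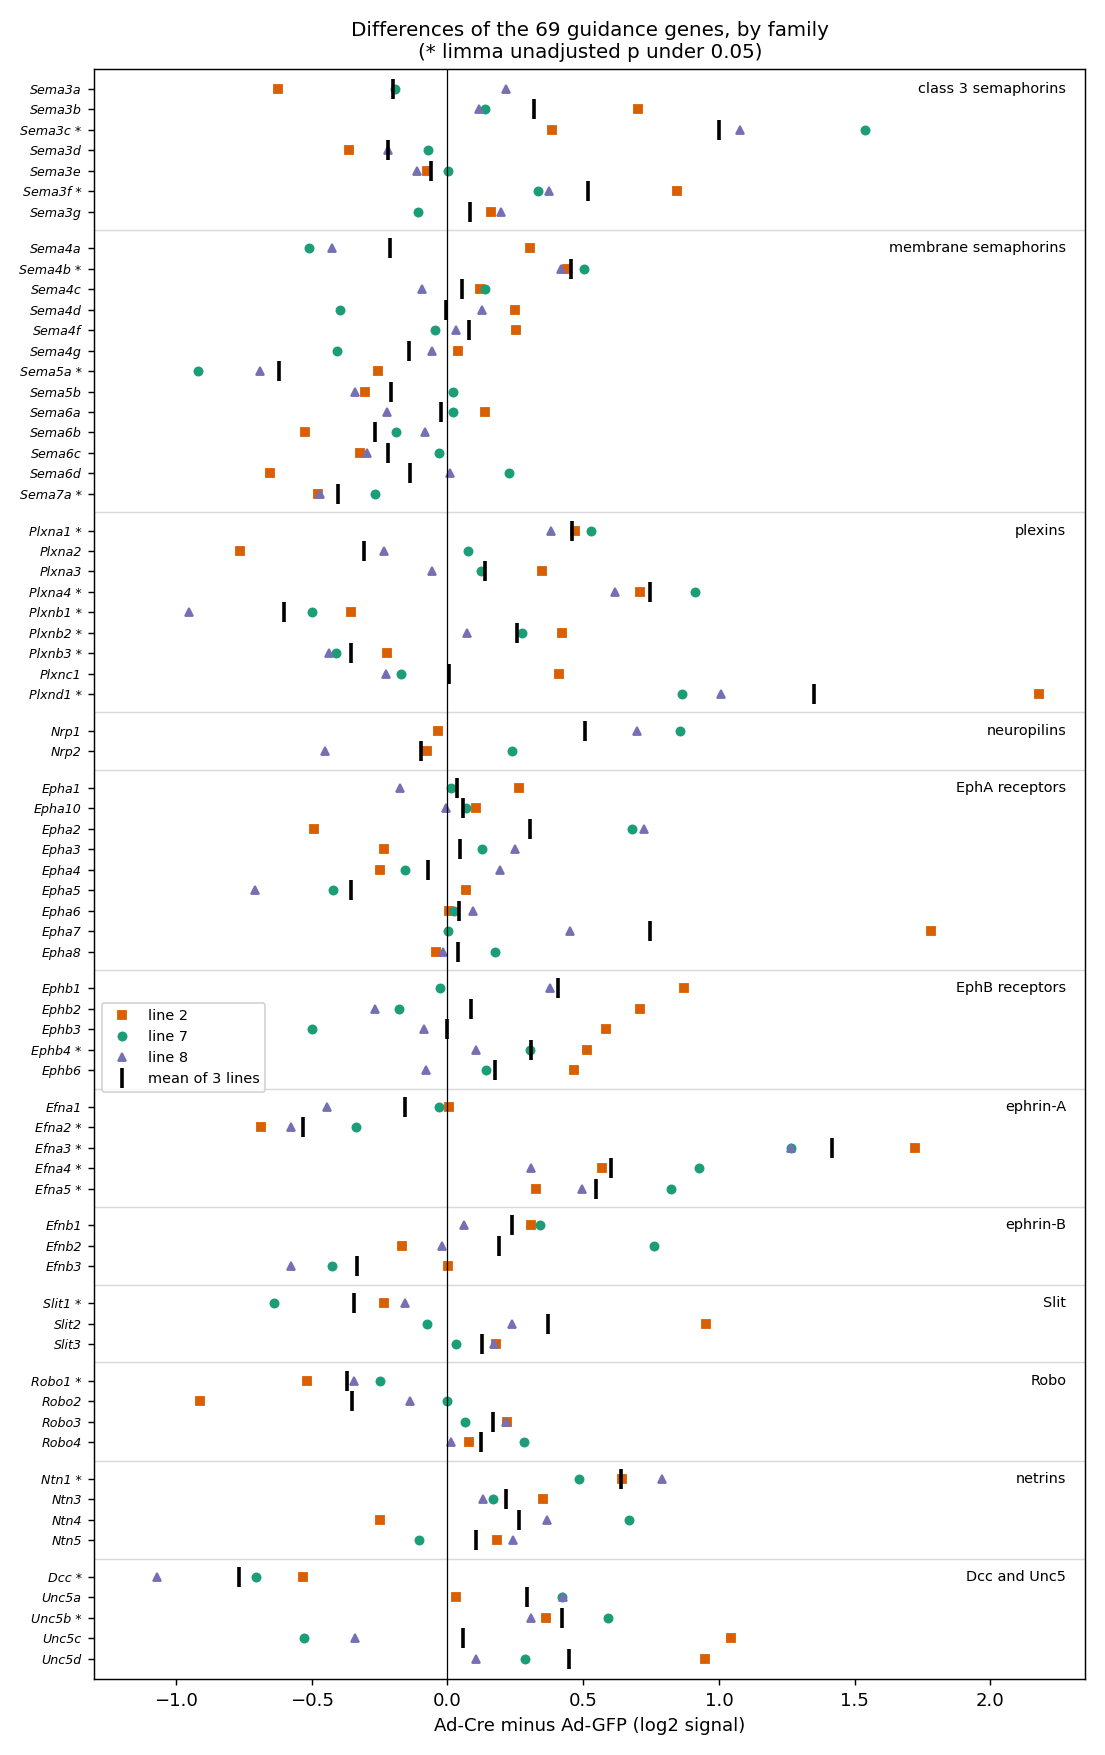
Difference between Ad-Cre and Ad-GFP on the log2 scale (x axis) for each of the 69 genes (rows, by family), with a symbol per line, a black bar for the mean of 3 lines and an asterisk for an unadjusted limma p under 0.05. Efna3 lies between 1.26 and 1.72 in all 3 lines, while Unc5c and Epha2 have line 2 on the opposite side of 0 from lines 7 and 8.

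These counts depended on lines 2 and 8. With both arrays of line 2 left out, only lines 7 and 8 remained, so the fit leaned more on variance estimated across all genes. In that fit 16 of the 69 genes had an adjusted p under 0.05, 11 higher and 5 lower, against 5.23% of all genes. They were Efna3, Efna5, Sema3c, Sema4b, Sema5a, Plxna1, Plxna4, Plxnb1, Plxnb3, Plxnd1, Nrp1, Epha2, Epha5, Ntn1, Ntn4 and Dcc, and 12 of them had the same direction in line 2. Without line 7 and without line 8 none did (0% of all genes), with 16 members at an unadjusted p under 0.05 in each case (23.2%, against 8.69% and 8.42% of all genes). Weighting the arrays with limma's array weights called 4 members, against 1.2% of all genes. These weights were equal for both arrays of a line, at 0.45, 1.35 and 1.66 in lines 2, 7 and 8. With the line as a block they reflect how far a line's differences lie from those of the others. They thus weigh down line 2 and are no separate measure of array quality. Exchanging the viruses of line 8 left 0 of 69 members at an unadjusted p under 0.05, against 1.81% of all genes, and 0 with an adjusted p under 0.05.

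The ephrin-A ligands moved furthest as a family, with a median difference of 0.55 over 5 genes, of which 3 were higher and 1 lower at an unadjusted p under 0.05. Efna3 read 8.71, 9.08 and 8.75 with Ad-GFP in lines 2, 7 and 8, and 10.43, 10.35 and 10.02 with Ad-Cre. The groups were far apart, with no Ad-Cre array below any Ad-GFP array. Efna3 was 2.67-fold higher, at 1.42 ± 0.13 log2 units (limma's moderated SE, n = 3 lines, limma adjusted p = 0.0886), the smallest p among the 69. It was called in 5 of 13 alternative analyses, among them a fit that takes the arrays as unpaired (adjusted p = 0.0374, where 0.354% of all genes were called). Efna4 read 9.09, 8.93 and 9.05 with Ad-GFP and 9.67, 9.86 and 9.35 with Ad-Cre, a difference of 0.60 ± 0.15 (adjusted p = 0.230). Again every Ad-Cre array was above every Ad-GFP array, with the largest step in line 7. For Efna5, the Ad-GFP arrays read 6.93, 6.53 and 7.05 and the Ad-Cre arrays 7.25, 7.35 and 7.55, a difference of 0.55 ± 0.12 (adjusted p = 0.204). It too had no overlap, though its Ad-GFP values lay close to the lower quartile of probe set signals. Efna2 went the other way, from 9.57, 9.64 and 9.49 with Ad-GFP to 8.88, 9.31 and 8.91 with Ad-Cre, at -0.53 ± 0.11 (adjusted p = 0.189). Its groups did not overlap either. Efna1 differed by -0.16 ± 0.12 (adjusted p = 0.636), and nearly all of that lay in line 8 (0.01, -0.03 and -0.44 in lines 2, 7 and 8), while its brightest probe set differed by 0.32.

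Efna1, Efna3 and Efna4 follow one another as protein-coding genes on mouse chromosome 3, in RefSeq's annotation of assembly GRCm38.p6. The windows from 250 bases before to 50 after their outermost annotated starts are shown because these neighbours differed in response. Those of Plxnd1 and Sema3c, described next, are shown with them. Each reads 5′ to 3′ on the gene's strand, from RefSeq with GRCm38.p6 coordinates. Capitals mark the GC box, searched as GGGCGG on both strands (CCGCCC on the printed one).
Efna1, chr3:89280902-89281201 (minus strand): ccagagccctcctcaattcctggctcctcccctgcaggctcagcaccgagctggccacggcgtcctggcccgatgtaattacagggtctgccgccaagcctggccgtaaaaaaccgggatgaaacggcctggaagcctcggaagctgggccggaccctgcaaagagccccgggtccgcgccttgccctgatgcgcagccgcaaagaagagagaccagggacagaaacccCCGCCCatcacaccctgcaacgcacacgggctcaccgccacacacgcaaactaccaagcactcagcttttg
Efna3, chr3:89322890-89323189 (minus strand): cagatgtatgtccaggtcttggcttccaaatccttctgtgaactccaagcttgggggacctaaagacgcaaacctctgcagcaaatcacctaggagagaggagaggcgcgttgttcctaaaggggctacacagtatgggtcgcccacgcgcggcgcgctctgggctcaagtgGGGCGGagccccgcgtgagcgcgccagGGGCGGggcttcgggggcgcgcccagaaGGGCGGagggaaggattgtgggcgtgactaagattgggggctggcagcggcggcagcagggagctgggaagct
Efna4, chr3:89337979-89338278 (minus strand): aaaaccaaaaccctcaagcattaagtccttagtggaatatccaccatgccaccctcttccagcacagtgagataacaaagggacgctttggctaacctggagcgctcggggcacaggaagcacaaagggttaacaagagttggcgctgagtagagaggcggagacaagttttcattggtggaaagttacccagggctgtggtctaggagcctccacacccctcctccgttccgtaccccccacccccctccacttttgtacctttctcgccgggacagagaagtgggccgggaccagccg
Plxnd1, chr6:115994956-115995255 (minus strand): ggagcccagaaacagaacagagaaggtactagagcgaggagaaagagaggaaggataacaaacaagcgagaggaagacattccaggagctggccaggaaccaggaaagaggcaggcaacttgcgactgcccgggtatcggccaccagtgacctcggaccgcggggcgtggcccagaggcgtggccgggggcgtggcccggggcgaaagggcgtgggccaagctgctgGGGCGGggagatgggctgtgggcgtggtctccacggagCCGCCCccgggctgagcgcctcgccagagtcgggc
Sema3c, chr5:17574566-17574865 (plus strand): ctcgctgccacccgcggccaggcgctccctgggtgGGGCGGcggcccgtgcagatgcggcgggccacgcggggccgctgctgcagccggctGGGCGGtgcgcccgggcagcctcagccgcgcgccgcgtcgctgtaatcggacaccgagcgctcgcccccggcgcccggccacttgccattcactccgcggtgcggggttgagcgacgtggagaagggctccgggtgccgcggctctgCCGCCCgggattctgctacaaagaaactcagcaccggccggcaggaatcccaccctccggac
The Efna3 window held 3 GC boxes, that of Efna1 held 1 and that of Efna4 held 0. Plxnd1 had 2 and Sema3c had 3. Of 32851 windows of this length in the table, 35.7% held at least 1. The letters ACGTG, on either strand, were in the Sema3c window and in none of the other 4, against 19.6% of all windows. The letters TATAAA were in none of the 5, against 13.6%. CG pairs numbered 20, 22 and 11 for Efna1, Efna3 and Efna4, 23 for Plxnd1 and 42 for Sema3c, against a median of 7 over all windows. Windows were matched by symbol for 59 of the 69 genes.

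**Figure D2:**
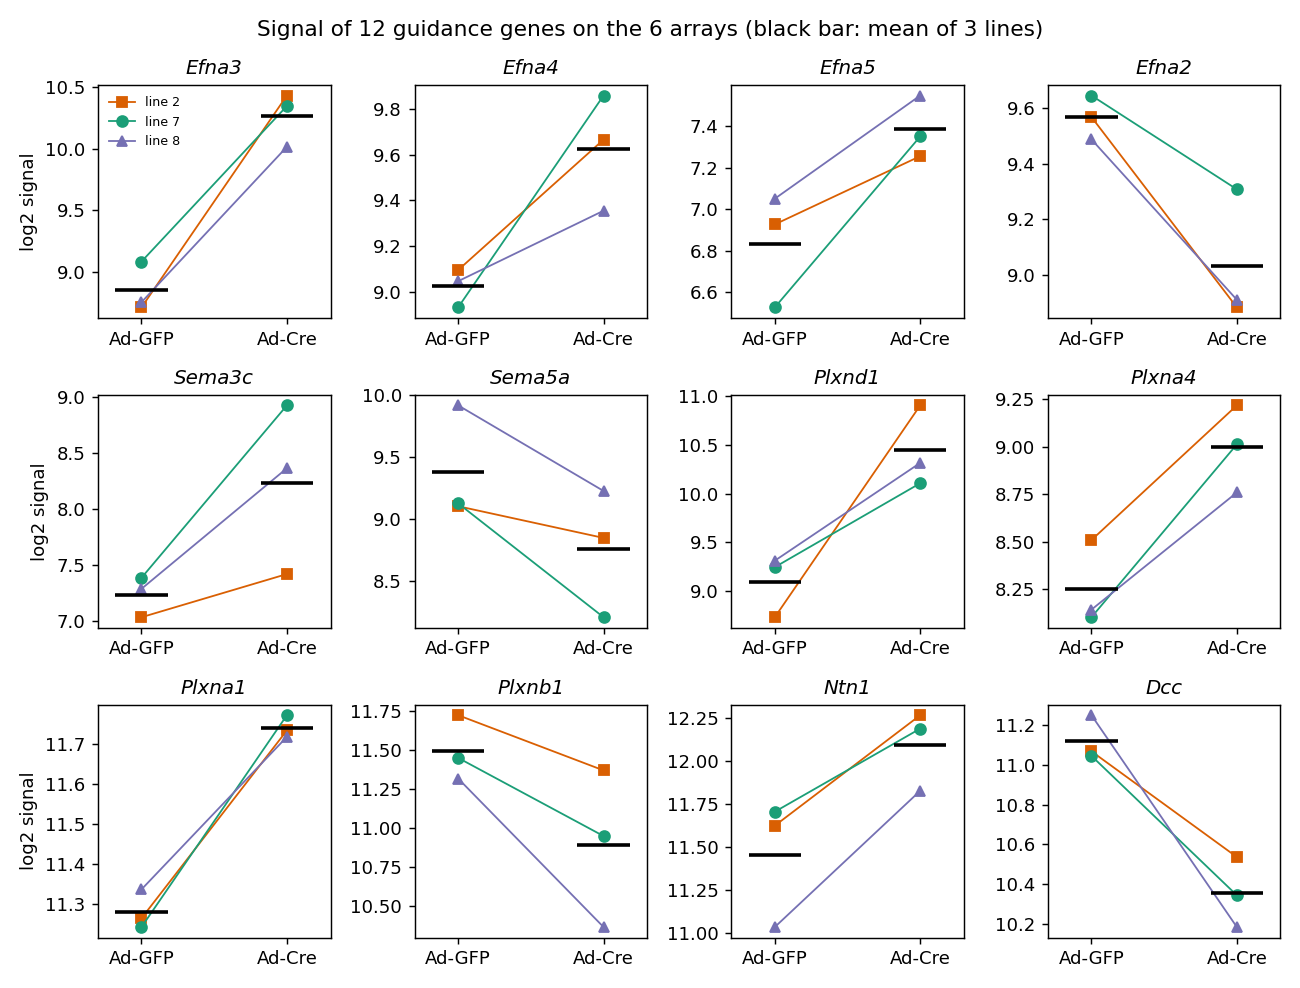
Log2 signal (y axis, scaled separately for each gene and not starting at 0) of 12 guidance genes on each array with Ad-GFP and Ad-Cre, where coloured lines join the arrays of a cell line and black bars are the means of 3 lines. Efna3 reads 8.71 to 9.08 with Ad-GFP and 10.02 to 10.43 with Ad-Cre, and Plxnd1 steps furthest in line 2.

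Eph receptors, the partners of these ligands, differed less. Over the 9 EphA genes the median difference was 0.04, and 0 of 9 reached an unadjusted p under 0.05. Epha7, a receptor of the developing cortex, had the largest mean difference, 0.74 ± 0.35 (adjusted p = 0.467), and it came mostly from line 2. Its Ad-GFP arrays read 7.50, 8.03 and 6.59 for lines 2, 7 and 8, and its Ad-Cre arrays 9.28, 8.03 and 7.05. Without line 2 it differed by 0.23. Epha2 and Epha5 had line 2 against the other lines. Differences for Epha2 were -0.49, 0.68 and 0.72 in lines 2, 7 and 8, and those for Epha5 were 0.07, -0.42 and -0.71. With line 2 left out, Epha2 was called as higher (0.70 ± 0.11, adjusted p = 0.0190) and Epha5 as lower (-0.57 ± 0.10, adjusted p = 0.0263). The other 6 EphA genes had mean differences between -0.07 and 0.06, and Epha1 and Epha6 were under the lower quartile of probe set signals.

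The median difference of the 5 EphB receptor genes was 0.18, and 1 of 5 reached an unadjusted p under 0.05. That gene was Ephb4, a receptor for ephrin-B2 best known from veins, which read 9.45, 9.17 and 9.35 with Ad-GFP and 9.96, 9.47 and 9.46 with Ad-Cre. Its difference was 0.31 ± 0.12 (adjusted p = 0.395), with arrays that barely cleared each other. In line 2 alone the family's median was 0.59, against -0.03 and -0.08 in lines 7 and 8. Ephb1 read 0.87, -0.03 and 0.38 as differences in lines 2, 7 and 8, Ephb2 0.71, -0.18 and -0.26, and Ephb3 0.59, -0.50 and -0.09. Ephb6, which lacks kinase activity, read 0.47, 0.14 and -0.08. Among their ephrin-B ligands 0 of 3 reached an unadjusted p under 0.05. Efnb1 was higher by 0.24 ± 0.10 (adjusted p = 0.447) in all 3 lines, Efnb2 differed by 0.19 ± 0.21 (adjusted p = 0.728), and Efnb3 by -0.33 ± 0.14 (adjusted p = 0.429), with 0.00 in line 2.

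Plexins, the signalling receptors for semaphorins, had more members below an unadjusted p of 0.05 than any other family, 6 of 9, with 4 higher and 2 lower. Plxnd1, a receptor that guides vessels and axons, read 8.73, 9.24 and 9.31 with Ad-GFP and 10.91, 10.11 and 10.32 with Ad-Cre. Every Ad-Cre array was above every Ad-GFP array, and the step was largest in line 2 (2.18, against 0.86 and 1.01 in lines 7 and 8). The mean difference was 1.35 ± 0.28 (adjusted p = 0.184), or 2.55-fold, and 0.93 ± 0.10 without line 2 (adjusted p = 0.00451). Its size depended on the probe sets: 34 of 35 were higher in all 3 lines, with mean differences from 0.29 to 1.95, and the brightest one had the smallest, 0.29. Plxna4, a co-receptor with neuropilin for Sema3A, read 8.51, 8.10 and 8.14 with Ad-GFP and 9.22, 9.01 and 8.76 with Ad-Cre. That was 0.75 ± 0.11 (adjusted p = 0.102), with the lowest Ad-Cre array above the highest Ad-GFP array. Plxna1 had the most even step, from 11.27, 11.24 and 11.34 with Ad-GFP to 11.73, 11.77 and 11.72 with Ad-Cre, 0.46 ± 0.08 (adjusted p = 0.133), with no overlap. Plxnb2 was higher by 0.26 ± 0.09 (adjusted p = 0.360), although by only 0.07 in line 8.

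Both plexins that were lower belong to class B. Plxnb1, the receptor for Sema4D, read 11.72, 11.45 and 11.32 with Ad-GFP and 11.37, 10.95 and 10.37 with Ad-Cre, a difference of -0.60 ± 0.14 (adjusted p = 0.209). The groups overlapped because the lines started from different levels, while within each line the Ad-Cre array was lower, with differences of -0.35, -0.50 and -0.95. Plxnb3, a plexin of the oligodendrocyte lineage, read 11.48, 11.22 and 10.49 with Ad-GFP and 11.25, 10.81 and 10.05 with Ad-Cre, at -0.36 ± 0.09 (adjusted p = 0.249). Its lines differed more than its viruses did. Of the other plexins, Plxna2 differed by -0.31 ± 0.18, Plxna3 by 0.14 ± 0.11 and Plxnc1, the receptor for Sema7A, by 0.00 ± 0.15, with 0.41, -0.17 and -0.23 in lines 2, 7 and 8. Nrp1, the neuropilin for Sema3A and for VEGF, read 8.92, 8.94 and 8.86 with Ad-GFP and 8.88, 9.80 and 9.55 with Ad-Cre. It was thus higher in lines 7 and 8 and level in line 2, with a mean of 0.51 ± 0.20 (adjusted p = 0.400) and of 0.78 ± 0.10 without line 2 (adjusted p = 0.00955). Nrp2, the neuropilin for Sema3F, differed by -0.10 ± 0.16 (adjusted p = 0.828).

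Among the class 3 semaphorins, which are secreted, Sema3c and Sema3f were higher and the other 5 did not reach an unadjusted p of 0.05. Sema3c, a ligand of neuropilins and Plexin-D1, read 7.03, 7.38 and 7.29 with Ad-GFP and 7.42, 8.92 and 8.36 with Ad-Cre. The line 2 step was the smallest, and its Ad-Cre array cleared the Ad-GFP arrays only narrowly. The mean difference was 1.0 ± 0.23 (adjusted p = 0.209), and 1.31 ± 0.14 without line 2 (adjusted p = 0.00520). Sema3f, a repellent that acts through neuropilin 2, was higher by 0.52 ± 0.14 (adjusted p = 0.258), at 0.85, 0.33 and 0.37 in lines 2, 7 and 8. Its brightest probe set went the other way, at -0.19. Sema3b was higher by 0.32 ± 0.15 (adjusted p = 0.467), with its brightest probe set at -0.37, and Sema3a, a repellent of cortical axons, lower by 0.20 ± 0.18 (adjusted p = 0.673), with a higher value in line 8. Sema3d, Sema3e and Sema3g had mean differences of -0.22, -0.06 and 0.08, and Sema3d and Sema3e were under the lower quartile of probe set signals. The brightest Sema3d probe set differed by 0.35.

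The membrane semaphorins leaned the other way, with 10 of 13 mean differences below 0 (Sema4d, at -0.01, turned sign when the arrays were quantile normalized again) and a median of -0.14. Sema5a, a membrane protein with thrombospondin repeats, read 9.11, 9.13 and 9.92 with Ad-GFP and 8.85, 8.21 and 9.23 with Ad-Cre. Each line was lower with Ad-Cre, but line 8 with Ad-Cre still exceeded lines 2 and 7 with Ad-GFP. The difference was -0.62 ± 0.15 (adjusted p = 0.233). Sema7a, the lipid-anchored ligand of Plexin-C1 and integrins, read 8.07, 7.97 and 8.24 with Ad-GFP and 7.59, 7.70 and 7.78 with Ad-Cre, with no overlap and a difference of -0.40 ± 0.10 (adjusted p = 0.227). Sema4b stood against the family with 10.03, 9.82 and 10.45 for Ad-GFP and 10.47, 10.33 and 10.87 for Ad-Cre. Its step was nearly equal in the 3 lines, 0.45 ± 0.09 (adjusted p = 0.164). Sema6b and Sema6c, ligands of class A plexins, were lower in all 3 lines, by 0.27 ± 0.12 and 0.22 ± 0.11 (adjusted p = 0.463 and 0.477), and their groups did not overlap. The 8 not yet named had mean differences between -0.21 (Sema4a and Sema5b) and 0.08 (Sema4f), among them Sema4d at -0.01 ± 0.15, and none had the same direction in all 3 lines.

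The netrin genes were all higher on average, and Dcc, the attractive netrin receptor, was lower. Ntn1 read 11.62, 11.71 and 11.04 with Ad-GFP and 12.27, 12.19 and 11.83 with Ad-Cre. Line 8 was the lowest under each virus and took the largest step, and its Ad-Cre array was still above all Ad-GFP arrays. The difference was 0.64 ± 0.09 (adjusted p = 0.102), or 1.56-fold. Dcc read 11.07, 11.05 and 11.25 with Ad-GFP and 10.54, 10.34 and 10.18 with Ad-Cre. Every Ad-Cre array was below every Ad-GFP array, at -0.77 ± 0.13 (adjusted p = 0.130), or 1.70-fold lower. Unc5b, one of the repulsive netrin receptors, read 7.95, 8.14 and 8.56 with Ad-GFP and 8.32, 8.73 and 8.87 with Ad-Cre, a step of 0.42 ± 0.11 (adjusted p = 0.237). The groups overlapped since the lines had different levels. Unc5a and Unc5d were higher in all 3 lines without reaching that p, by 0.29 ± 0.12 and 0.45 ± 0.19 (adjusted p = 0.428 and 0.422), with the brightest Unc5a probe set at -0.03. Unc5c was split, at 1.04 in line 2 and -0.53 and -0.34 in lines 7 and 8. Ntn4, a basement membrane netrin, read -0.25, 0.67 and 0.37 as differences in lines 2, 7 and 8, and was called without line 2 (0.52 ± 0.11, adjusted p = 0.0419). Ntn3 and Ntn5 were higher by 0.22 ± 0.10 and 0.11 ± 0.10 (adjusted p = 0.465 and 0.700), and the brightest Ntn5 probe set read -0.09.

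Of the Slit repellents and their Robo receptors, Slit1 and Robo1 were lower. Robo1 read 12, 11.88 and 11.47 with Ad-GFP and 11.48, 11.63 and 11.13 with Ad-Cre. Each line was lower with Ad-Cre, within overlapping groups, by -0.37 ± 0.09 (adjusted p = 0.224). Slit1 read 7.97, 8.18 and 8.02 with Ad-GFP and 7.74, 7.54 and 7.86 with Ad-Cre, a difference of -0.34 ± 0.13 (adjusted p = 0.388) without overlap. Its brightest probe set was higher instead, at 0.13. Slit2 differed by 0.37 ± 0.21 (adjusted p = 0.534), of which line 2 had 0.95. Robo2, the neighbour of Robo1 on chromosome 16, read -0.91, 0.00 and -0.14 as differences in the 3 lines. Slit3, Robo3 and Robo4 were higher in all 3 lines by 0.13 ± 0.09, 0.17 ± 0.08 and 0.12 ± 0.09 (adjusted p = 0.603, 0.473 and 0.624), and Robo3 was under the lower quartile of probe set signals. The brightest Robo4 probe set differed by -0.08.

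Several genes can be set beside the partner they are known to bind. Ntn1 and Unc5b were higher where Dcc was lower, in each of the 3 lines. Sema3c and Plxnd1 were both higher in each line, and line 2 had the largest step for Plxnd1 and the smallest for Sema3c. Slit1 and Robo1 were both lower in each line. Efna3, Efna4 and Efna5 were higher, Efna2 was lower (-0.53) and Efna1 differed by -0.16, whereas EphA receptors had a median difference of 0.04. Other partners did not move together. Sema7a differed by -0.40 and Plxnc1 by 0.00, Sema3f by 0.52 and Nrp2 by -0.10, and Slit2 by 0.37 and Robo1 by -0.37. Differences between members of a pair were not tested, and levels of different genes on an array cannot be compared.

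The differences of lines 7 and 8 ran closer together than those of line 2 with either. Across the 69 genes the differences correlated at 0.80 between lines 7 and 8, 0.53 between lines 2 and 8 and 0.36 between lines 2 and 7. Over all genes the values were 0.56, 0.40 and 0.37. The genes of a line share its arrays, so these are descriptions without a test. Line 2 went against a shared direction of lines 7 and 8 in 14 members, 20.3% against 23.1% of all genes. The median absolute difference of the members was 0.35, 0.27 and 0.24 in lines 2, 7 and 8, against 0.20, 0.13 and 0.13 over all genes. Members that differed by more than 1 numbered 4 in line 2 (Plxnd1, Epha7, Efna3 and Unc5c), 5.8% against 5.39% of all genes. There were 2 in line 7 (Sema3c and Efna3), 2.9% against 1.64%, and 4 in line 8 (Efna3, Sema3c, Plxnd1 and Dcc), 5.8% against 1.09%.

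**Figure D3:**
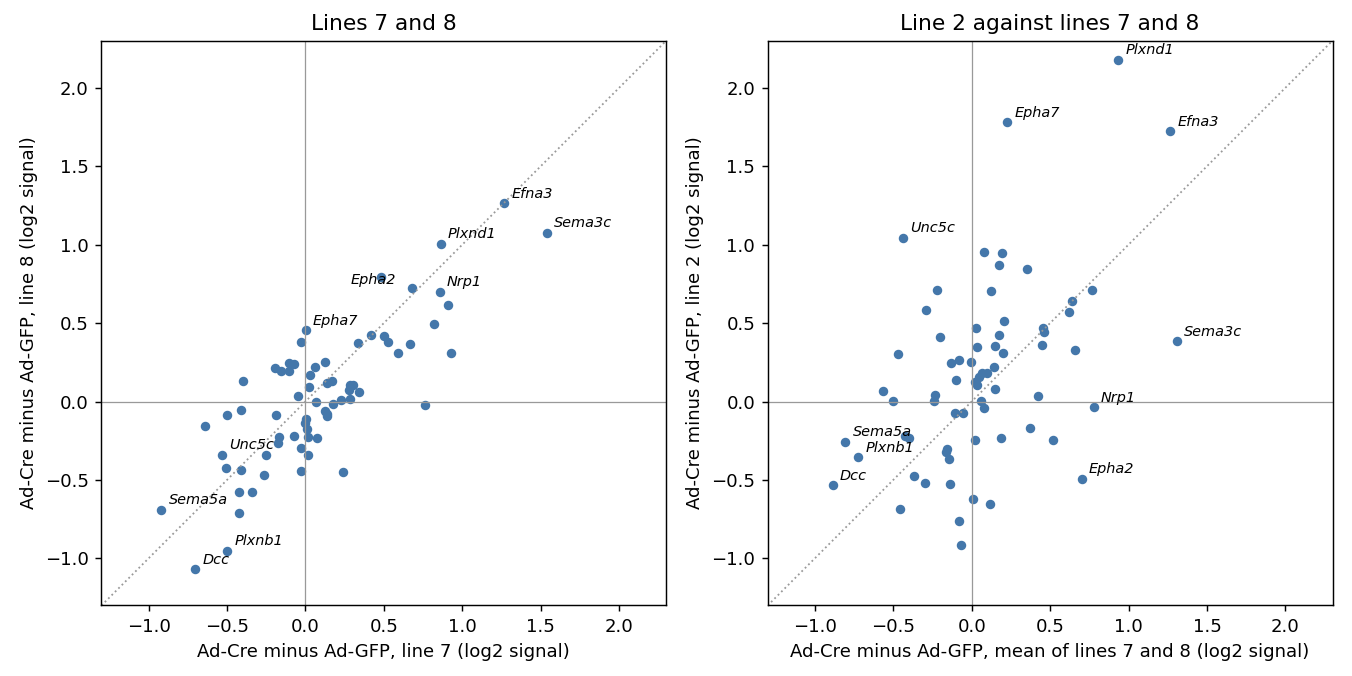
Difference between Ad-Cre and Ad-GFP on the log2 scale for each of the 69 genes, line 8 against line 7 (left) and line 2 against the mean of lines 7 and 8 (right), where the dotted line marks equal values and 10 genes are named. The left panel follows the dotted line (correlation 0.80), while in the right panel Epha7, Plxnd1 and Unc5c lie above it and Nrp1, Epha2 and Sema3c below.

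Whatever the virus, the lines themselves differed in some of these genes. At an unadjusted p under 0.05 of limma's moderated F test between lines there were 14 of 69 members, 20.3% against 4.92% of all genes, and 0 passed after adjustment (0.00864% of all genes did). Plxnb3 had the smallest p among the members (limma's F test, adjusted p = 0.711). It was lowest in line 8 and highest in line 2 under both viruses, as given above. Sema4b was highest in line 8 under both viruses, and Ntn1 lowest there. Plxnc1 read 11.28 and 11.69 in line 2, against 10.45 to 10.79 in lines 7 and 8. Sema5a was highest in line 8 under both viruses. Between lines 7 and 8 alone, Plxnb3, Sema5a and Epha7 passed (adjusted p = 0.0315, 0.0499 and 0.0460), where 0.16% of all genes did.

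Probe sets of the same gene agreed in direction to differing degrees. Of 1316 member probe sets, 23.7% were higher in all 3 lines and 17.8% lower, against 17.5% and 16.5% of all probe sets. At an unadjusted p under 0.05 there were 24.3%, against 10.7%, and 0 passed after adjustment over all probe sets (0% of all). More than 50% of a gene's probe sets were higher in all 3 lines in 13 members, 18.8% against 8.52% of all genes, and lower in 8, 11.6% against 7.65%. In 29 members some probe sets were higher in all 3 lines and others lower, a count that was not made over all genes. Members had 5 to 35 probe sets, against a median of 8 per gene, so the 29 are not a trait particular to them. Plxna1 had 25 of 27 higher, Efna3 6 of 7 and Efna4 5 of 6. Dcc had 21 of 23 lower, Robo1 23 of 26 and Plxnb1 24 of 29. Slit1 had 11 of 33 lower and 0 higher in all 3 lines, with mean differences from -1.85 to 0.55. Ntn1 had 9 of 10 higher and 1 lower. Unc5b had 8 of 15 higher and 1 lower, with mean differences from -1.29 to 1.16, and Sema4b, Sema7a and Ephb4 also had 1 probe set opposite to the gene in all 3 lines.

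**Figure D4:**
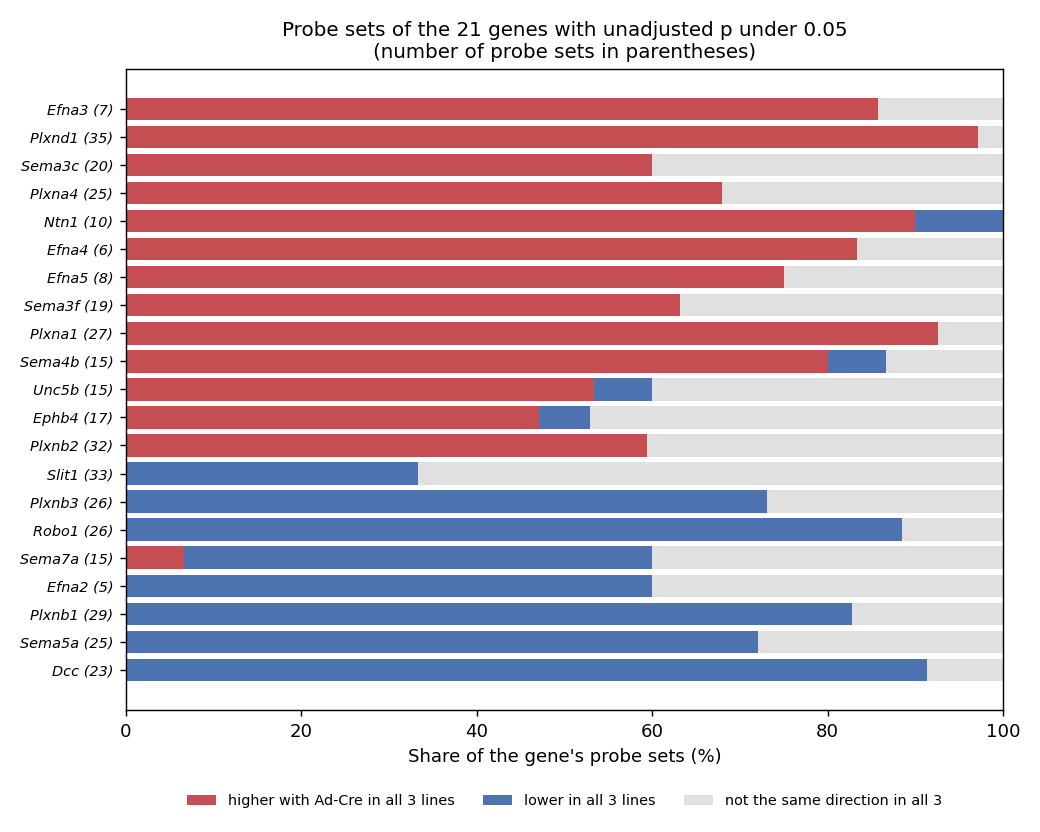
Share of each gene's probe sets (x axis, %) that were higher with Ad-Cre in all 3 lines, lower in all 3, or neither, for the 21 genes with an unadjusted limma p under 0.05, ordered by mean difference. Plxnd1 (34 of 35), Plxna1 (25 of 27) and Dcc (21 of 23) are nearly uniform, while Slit1 has 11 of 33 lower.

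Other genes of the guidance pathways were taken from a list of 103, of which 98 matched a symbol on the array. At an unadjusted p under 0.05, 12 were higher and 16 were lower, where 7.04% and 5.58% of all genes were, and 0 passed after adjustment. Among 38 partners and co-receptors (median 0.07), 5 were higher and 7 lower. The netrin co-receptor Dscam and its relative Dscaml1 were lower by 1.59 ± 0.37 (adjusted p = 0.209) and 1.74 ± 0.15 (adjusted p = 0.0775), as were the receptor phosphatase Ptprd by 0.66 ± 0.11, the neuropilin-binding adhesion protein Chl1 by 1.40 ± 0.31 and the Unc5 ligand Flrt2 by 0.38 ± 0.09, while Rgmb, a neogenin ligand, was higher by 0.47 ± 0.09. In the 60 intracellular effectors (median 0.01), 7 were higher and 9 lower. Pak3, a kinase downstream of Rac, was lower by 1.27 ± 0.10 (adjusted p = 0.0669), Dpysl4, of the collapsin response family, by 0.96 ± 0.11 (adjusted p = 0.0919) and the plexin effector Mical1 by 1.44 ± 0.27 (adjusted p = 0.159). Its relative Mical2 was higher by 1.34 ± 0.27, the Eph adaptor Nck2 by 0.80 ± 0.11 (adjusted p = 0.0980) and the Robo effector Srgap2 by 0.48 ± 0.08.

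Markers of other cell states moved in the same arrays. Of 13 oligodendrocyte lineage genes, 11 had lower means and 6 were lower in all 3 lines. Over all genes, 10104 of 23152 had lower means and 16.2% were lower in all 3 lines. The mean signal of the oligodendrocyte lineage list was 9.30 to 9.40 with Ad-GFP and 8.53 to 8.68 with Ad-Cre. The progenitor receptor Pdgfra was lower by 2.72 ± 0.34 (adjusted p = 0.0939), whereas Olig2 differed by -0.01 ± 0.07. Of 12 neural stem cell markers, 9 had lower means, with 4 lower and 2 higher in all 3 lines. Their mean signal was 11.95 to 12.04 with Ad-GFP and 11.69 to 11.95 with Ad-Cre. Prom1 was lower by 1.31 ± 0.23 (adjusted p = 0.134) and Msi1 by 0.48 ± 0.10. Hes1 was higher by 0.42 ± 0.10, and Sox2 differed by -0.04 ± 0.13. Among 15 cell cycle genes all had lower means. Their mean signal was 11.83 to 11.93 with Ad-GFP and 9.46, 11.63 and 11.65 with Ad-Cre in lines 2, 7 and 8. Mean signals of 14 neuron markers were 8.21 to 8.26 with Ad-GFP and 7.55 to 8.17 with Ad-Cre. The neuron markers were split, with 7 higher and 7 lower means and a median difference of -0.04. Those of 9 astrocyte markers were 10.78 to 10.98 with Ad-GFP and 9.76 to 10.84 with Ad-Cre, with 2 higher and 7 lower mean differences. In line 2 the astrocyte mean went from 10.78 to 10.84, and Gfap differed there by 3.79. S100b, Aldoc and Slc1a2 were also higher in line 2, by 0.997, 0.205 and 0.099. Aldh1l1, Slc6a11, Apoe, Gja1 and Aqp4 were lower there, with differences of -1.43, -1.28, -1.11, -0.47 and -0.28. For 9 endothelial markers the means were 6.63 to 6.71 and 6.72 to 6.87, with Cldn5, Emcn and Esam under the lower quartile of probe set signals, for 10 microglia markers 7.14 to 7.18 and 7.25 to 7.28, and for 10 fibroblast, meningeal and pericyte markers 7.40 to 7.64 and 7.38 to 7.43. Whether a shift in cell state or cell type takes part in the differences of guidance genes was not tested. In bulk RNA, fewer cells of a type and less RNA per cell cannot be told apart.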

How the data were processed

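Each deposited value is the log2 signal of 1 probe set. Per the submitters' processing notes, the authors used Affymetrix Expression Console with RMA, and versions and genome build are not stated in the sources used here. RMA equalises the arrays' signal distributions, which hides a change shared by most genes. Of 269751 probe sets, 233753 with 1 gene symbol (5106 had several, 30892 none) were summarised to 23152 genes by median polish. No gene was filtered out. Ad-Cre and Ad-GFP were compared over all 23152 genes with limma 3.58.1 in R 4.3.3, with the cell line as a block, a variance trend, two-sided tests and Benjamini-Hochberg adjustment at 0.05. The line was the block because the study design gives each line both viruses. Deviations of same-line arrays from their virus mean correlated across genes at 0.226, 0.163 and 0.333 in lines 2, 7 and 8. Each line gave 1 culture per virus, so p-values rest on the spread of the effect between lines, and separate embryos are not stated. For each gene, limma moderates that spread with the variance of other genes (2 residual and 2.90 prior degrees of freedom). The values after ± are these moderated SEs, so they are not the spread of a gene's own 3 lines alone.

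Members and lists were chosen with earlier results of these data known. Genes named had an unadjusted p under 0.05 and 1 direction in all 3 lines, the largest difference of their family, a call under an alternative, or 1 of the 5 smallest p between lines. Up to 6 genes per pathway list with the lowest p were named, and the other members are given by values or ranges. Pathway symbols without a match were not analysed here. The 13 alternatives cover the block, each line left out, the line 8 labels, summaries, normalization, dim genes, the variance trend and array weights.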

Additional observations from a re-analysis of the deposited data

How the results depend on the processing

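The number of the 69 genes with an adjusted p under 0.05 was 0, and it was 1 with no replicate block (arrays taken as unpaired), 3 with the line as a random block, 1 with the mean of probe sets and 4 with array weights (0.354%, 1.04%, 0.315% and 1.2% of all genes). Leaving out a line gave 0 to 16 members called between viruses, and 0 to 3 between lines. The number of their probe sets called was 0, and 4 with the line as a random block. With the viruses of line 8 exchanged, members at an unadjusted p under 0.05 went from 21 to 0 and pathway genes from 28 to 1, while all genes went from 12.6% to 1.81%. Leaving out a line gave 17 to 40 such pathway genes, and 8.42% to 17.5% of all genes. The cause was not tested. The members' median difference lay between 0.03 and 0.10 under all 13 alternatives. Among the 30 genes named by the rule, signs turned for Sema3f (-0.19) and Slit1 (0.13) with the brightest probe set, for Plxnb1 (0.032), Epha2 (-0.18), Epha5 (0.12) and Efnb3 (0.050) with line 8 exchanged, and for Plxnc1 without line 2 (-0.20), with the mean of probe sets (-0.036) and with array weights (-0.12). Over all 69 members, 17 turned sign with the brightest probe set, 14 with line 8 exchanged and 9 without line 2. Of the 21 members, 18 kept their direction under all 13 alternatives. Much of this was fixed beforehand. The unpaired fit, the random block, the fit without a variance trend and the removal of dim genes leave the mean difference as it was. As the 21 had the same direction in all 3 lines, leaving out or weighting lines could not turn their signs either. For the same reason, exchanging line 8 set it against the other lines in each of the 21, so their loss was largely fixed too. Signal close to background limits Sema3d, Sema3e, Epha1, Epha6 and Robo3.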
